A study of Homo sapiens with 10 samples.

Results

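The basal and stress keratins described here are 7 genes, KRT5, KRT6A, KRT6B, KRT14, KRT15, KRT16 and KRT17, chosen by symbol from the count tables of a study of MCF10A cells. All 7 were found among the 26256 genes of the first table and among the 55736 rows of the second, and all 7 passed the filter on low counts in both. MCF10A is a nontransformed human mammary epithelial line. G12V cells are MCF10A cells that received the HRas oncogene with the G12V change by viral transduction together with a GFP vector and hygromycin selection, and the methods name no single clone. Poly(A) RNA of untreated MCF10A and G12V cells was sequenced in 2 replicates each, and in a separate experiment MCF10A cells were given 10 µM Nutlin-3a, which blocks the binding of MDM2 to p53, or DMSO for 4 h in 3 replicates each. Both cell types were grown with EGF, insulin, hydrocortisone, cholera toxin and horse serum. The methods call the replicates biological without saying what separated them, so p-values measure the spread between these libraries.

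Keratins are the intermediate filament proteins of epithelial cells, and a filament is built from pairs of a type I and a type II keratin. KRT5 (type II) with KRT14 or KRT15 (type I) forms the filaments of basal cells, which sit on the basement membrane of skin and of the mammary duct, and the MCF10A line is known for a basal pattern of this kind. KRT6A and KRT6B (type II) and KRT16 and KRT17 (type I) are the stress or wound keratins, which keratinocytes switch on after injury and in hyperproliferation. The type II genes lie in a cluster on chromosome 12 and the type I genes in a cluster on chromosome 17, all 7 on the minus strand. In the first table (hg19) the rows of the type II genes are chr12:52908359-52914243 for KRT5, chr12:52880958-52887181 for KRT6A and chr12:52840435-52845910 for KRT6B. Those of the type I genes are chr17:39738531-39743147 for KRT14, chr17:39669997-39675270 for KRT15, chr17:39766031-39769079 for KRT16 and chr17:39775692-39780882 for KRT17. The main GENCODE transcripts have 9 exons in the type II genes and 8 in the type I genes, and reads were counted per gene and not per exon.

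The coding sequences of these genes are much alike, and this bears on how reads were assigned to them. Over aligned coding bases KRT6A and KRT6B were 97.5% identical, KRT5 and KRT6A 81.5%, KRT14 and KRT16 87.6%, KRT14 and KRT17 83.8%, and KRT14 and KRT15 72.1%. The stretch of 60 coding bases within 1 exon that was most alike in the type II genes was the same in KRT5, KRT6A, KRT6B and KRT6C, a neighbouring gene that is no member. It is shown because a read from it names no single gene. In GRCh37 it lies at chr12:52912846-52912905 in KRT5, chr12:52885422-52885481 in KRT6A and chr12:52844306-52844365 in KRT6B, all on the minus strand.
KRT5, KRT6A and KRT6B: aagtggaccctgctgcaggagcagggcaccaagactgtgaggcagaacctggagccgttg

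The most alike stretch of 60 coding bases in the type I genes was picked in the same way, without regard to the place of the type II stretch. It differed at 2 of 60 positions, which are in capitals below. It is at chr17:39742676-39742735 in KRT14, chr17:39674699-39674758 in KRT15, chr17:39768524-39768583 in KRT16 and chr17:39780444-39780503 in KRT17 (GRCh37, minus strand). KRT14 and KRT16 were identical over it.
KRT14: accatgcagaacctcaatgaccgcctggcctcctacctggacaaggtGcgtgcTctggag
KRT15: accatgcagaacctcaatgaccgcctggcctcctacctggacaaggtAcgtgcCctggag
KRT16: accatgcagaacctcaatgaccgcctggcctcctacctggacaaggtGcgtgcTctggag
KRT17: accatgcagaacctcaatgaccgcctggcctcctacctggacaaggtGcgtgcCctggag

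The 60 coding bases within 1 exon at which KRT6A and KRT6B differ the most are shown because reads from them tell this pair apart. Reads from some other stretches do so as well. The 60 bases shown lie at chr12:52885339-52885398 in KRT6A and chr12:52844223-52844282 in KRT6B (GRCh37, minus strand), and the 9 differing positions are in capitals.
KRT6A: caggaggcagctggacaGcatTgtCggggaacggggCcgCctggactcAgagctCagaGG
KRT6B: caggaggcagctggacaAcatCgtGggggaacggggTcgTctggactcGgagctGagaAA

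Of the windows of 50 bases along each main transcript, 46.7% in KRT6B and 39.2% in KRT6A also occurred in a transcript of another gene, mostly in KRT6C. The share was 24.2% in KRT14, 21.8% in KRT16, 17.4% in KRT17, 4.52% in KRT5 and 1.02% in KRT15. How reads with more than 1 place in the genome were counted is not given in the sources used here, so the split between KRT6A and KRT6B, and between KRT14, KRT16 and their pseudogenes, is uncertain. The near copies themselves held few reads in the first table, where KRT6C, KRT75 and 4 pseudogenes together had 0.53 to 1.00 CPM in MCF10A and 0.13 to 0.22 CPM in G12V cells.

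The libraries of the first table held 21538593 and 23683975 counts in MCF10A and 22070837 and 23318848 in G12V cells. Those of the second held 16402941 to 17378734 counts with DMSO and 15453226 to 16756691 with Nutlin-3a. Levels below are counts scaled to 1000000 per library (CPM), with library sizes corrected by edgeR's TMM factors. Differences were tested by the quasi-likelihood method of edgeR, and p-values were adjusted by Benjamini-Hochberg over all genes tested. Standard errors (SE) of log2 fold changes were worked back from this test, as the absolute change divided by the square root of its F statistic. They can be too small for genes with few reads. A gene is called when its adjusted p is under 0.05 and its absolute log2 fold change above 0.5. HRAS, read to check the labels, had 69.2 ± 4.76 CPM (SD, n = 2) in MCF10A, compared with 572 ± 82.0 CPM (SD, n = 2) in G12V cells, and CDKN1A and MDM2, targets of p53, rose with Nutlin-3a by 2.16 and 2.54 on the log2 scale.

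The first comparison asks how the keratins differ between G12V cells and the MCF10A cells they came from. All 7 keratins were called lower in G12V cells, while 5.95% of the 14376 genes tested were, with 5.01% called higher. In all 7 both G12V libraries were below both MCF10A libraries, which held for 27.4% of the genes tested. The median log2 fold change was -4.93 over the 7 keratins and -0.0011 over all genes tested. In bulk RNA, fewer cells of a type and less RNA per cell cannot be told apart.

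**Figure D1:**
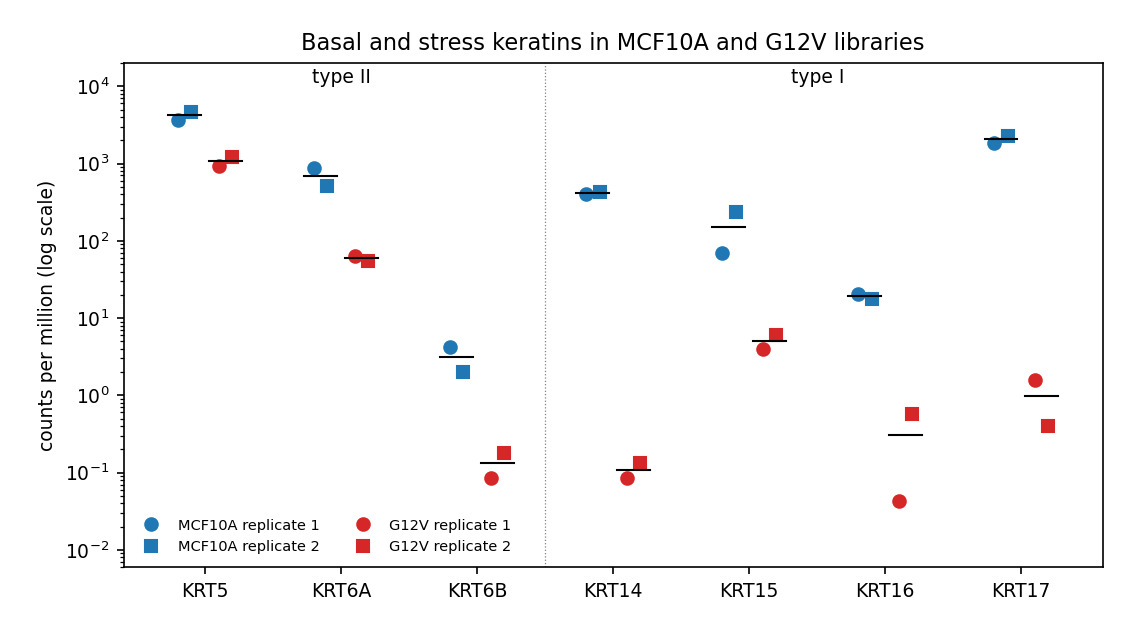
CPM on a log scale for each of the 7 keratins in the 2 MCF10A libraries (blue) and the 2 G12V libraries (red), with circles for replicate 1, squares for replicate 2 and a black line at the group mean. Both red points lie below both blue points for each gene, with the widest gaps at KRT14 and KRT17.

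Of the basal keratins, KRT5 was the most abundant member and the one that fell least. It had 3712 and 4673 CPM in the MCF10A libraries and 936 and 1220 CPM in the G12V libraries. The G12V libraries were both lower but still held many KRT5 reads, and the fitted log2 change was -1.96 (SE 0.32, adjusted p = 0.0158), or 25.7% of the MCF10A level.

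KRT14, the usual partner of KRT5, had 402 and 422 CPM in MCF10A, from 8848 and 9593 counts. In G12V cells it had 2 and 3 counts, or 0.085 and 0.13 CPM. The 2 MCF10A libraries were within 1.05-fold of each other, and the G12V libraries were close to no reads. The pooled counts gave a level 3779-fold lower in G12V cells, with a 95% counting interval of 1619 to 11640 from an exact binomial, which takes in counting error alone, as the reads carry no molecular identifiers. The adjusted p was 0.000337.

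KRT15, a type I keratin of basal and progenitor cells, had 69.1 and 237 CPM in MCF10A, against 3.93 and 6.11 CPM in G12V cells. The groups did not overlap, although the MCF10A libraries differed by 3.43-fold, the widest gap of any keratin here within MCF10A. On the log2 scale the change was -4.93 (SE 0.66, adjusted p = 0.00880).

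Of the stress keratins, KRT17 fell the most. It had 1833 and 2296 CPM in MCF10A, from 40359 and 52152 counts, and 1.58 and 0.40 CPM in G12V cells, from 37 and 9 counts. On the log2 scale the change was -11.01 (SE 0.71, adjusted p = 0.00121).

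KRT16 had 20.3 and 17.9 CPM in MCF10A, against 0.043 and 0.58 CPM in G12V cells, from 1 and 13 counts. The level was low in both G12V libraries, but these differed by 13.6-fold. The pooled level was 62.4-fold lower (counting interval 37.0 to 115), and the log2 change was -5.93 (SE 0.75, adjusted p = 0.00779), or -8.63 without G12V replicate 2 and -5.03 without G12V replicate 1.

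Of the type II stress keratins, KRT6A had 882 and 516 CPM in MCF10A, against 63.8 and 55.4 CPM in G12V cells, or -3.55 on the log2 scale (SE 0.33, adjusted p = 0.00331). KRT6A was the only member besides KRT5 that kept more than 10 CPM in G12V cells. KRT6B, its near copy, was rare from the start, at 4.27 and 1.98 CPM in MCF10A, against 0.085 and 0.18 CPM in G12V cells, from 2 and 4 counts. The pooled level was 23.7-fold lower (counting interval 10.6 to 65.8, adjusted p = 0.0117).

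In order of the fall, KRT14 and KRT17 came first and KRT5 last. KRT14 and KRT17 differed in log2 fold change by 0.80, close to the combined standard error of 0.78, so their order is not set. From KRT17 to KRT16, the next, the step was 5.08 (combined SE 1.03). The steps from KRT16 to KRT15 (1.00, combined SE 1.00), from KRT15 to KRT6B (0.41, combined SE 0.94) and from KRT6B to KRT6A (0.97, combined SE 0.74) were within 1.5 combined standard errors. KRT6A fell by more than KRT5, by 1.59 (combined SE 0.46). These standard errors are rough, as they were worked back from the test. DESeq2 gave larger ones for KRT14 (0.695 against 0.332) and KRT6B (0.915 against 0.666), which had few G12V reads. For the remaining members it gave smaller ones.

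These calls depended on 1 MCF10A library more than on the others. With MCF10A replicate 1 left out, the lone MCF10A library being assumed to vary like the G12V ones, no gene of the 14883 tested was called by edgeR's quasi-likelihood test, the smallest adjusted p being 0.0502, that of KRT14, and 2830 genes had an unadjusted p under 0.05. The 7 keratins were then lower by log2 fold changes from -11.82 to -2.10, each with an unadjusted p under 0.05, at adjusted p of 0.0502 to 0.12. Without G12V replicate 1 the other 6 were called, and KRT5 had a log2 fold change of -1.78 and an adjusted p of 0.0642.

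As a share of the library, the 7 keratins took 0.708% and 0.783% of all counts in the MCF10A libraries and 0.107% and 0.123% in the G12V libraries. The means were 0.745% ± 0.053 and 0.115% ± 0.012 (SD, n = 2 each), a 6.48-fold difference. The exact two-sided permutation test gave p = 0.33, the smallest that 2 against 2 libraries allow. The make-up differed as well. KRT5 was 53.6% and 57.2% of the summed counts of the 7 in MCF10A, against 93.1% and 95.1% in G12V cells, while KRT17 was 26.5% and 28.1% in MCF10A, against 0.16% and 0.031% in G12V cells.

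**Figure D2:**
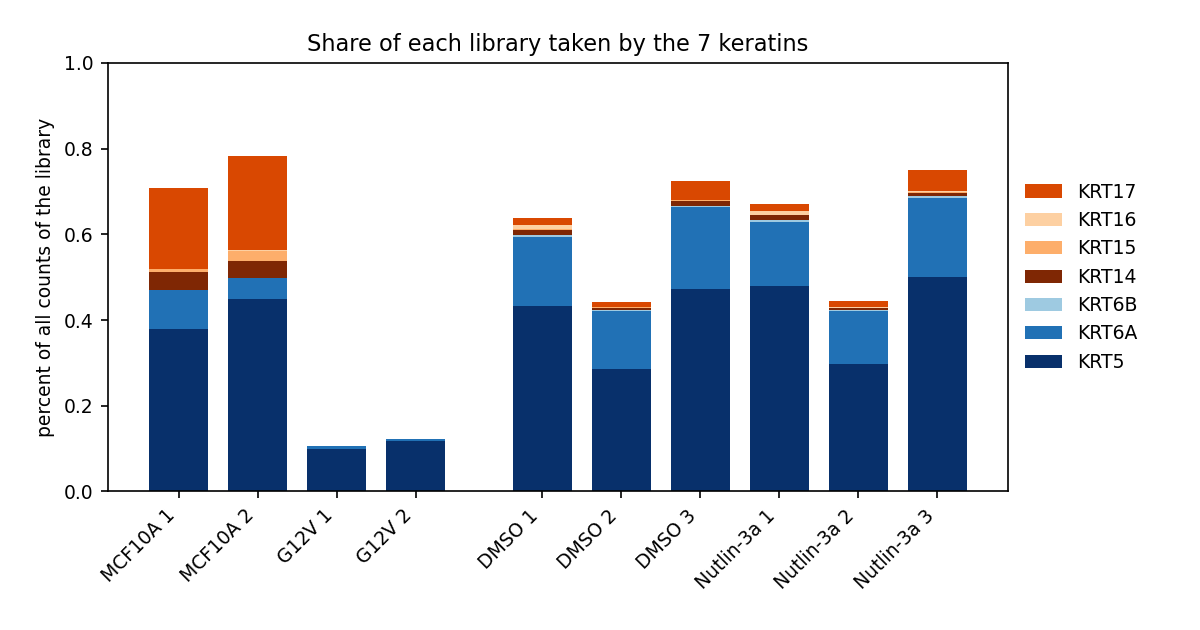
Percent of all counts of a library taken by each of the 7 keratins, stacked, in the 4 libraries of the first table (left) and the 6 libraries of the Nutlin-3a experiment (right). Blue shades are type II and brown to orange shades type I keratins. The G12V bars reach 0.107% and 0.123% and are nearly all KRT5, and the second table's bars go up and down with the replicate number.

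Levels of different genes were compared only after division by the length of the main transcript. In MCF10A the order was KRT5 with 1873 ± 304 CPM per kb, KRT17 with 1361 ± 216, KRT6A with 303 ± 112, KRT14 with 252 ± 8.80, KRT15 with 89.4 ± 69.3, KRT16 with 11.5 ± 1.02 and KRT6B with 1.36 ± 0.70 (SD, n = 2 each). The libraries of KRT6A and KRT14 overlapped, and those of the other neighbours in this order did not. In G12V cells KRT5 led with 482 ± 89.8 CPM per kb, followed by KRT6A with 25.8 ± 2.58 and KRT15 with 2.93 ± 0.90 (SD, n = 2 each). The other 4 were under 1.1 CPM per kb in every G12V library, and each overlapped with its neighbour.

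The pairing of the 2 types was read from count ratios within a library, which do not depend on library size. The log2 ratio of KRT5 to KRT14 was 3.34 ± 0.18 in MCF10A and 13.01 ± 0.12 in G12V cells (SD, n = 2 each), the type I partner having the larger fitted fall. The log2 ratio of KRT6A to KRT17 went from -1.60 ± 0.78 to 6.17 ± 1.21 (SD, n = 2 each), and per kb of transcript KRT17 was above KRT6A in MCF10A and below it in G12V cells. The ratio of KRT5 to KRT15 was higher in G12V cells by 2.74, KRT6A to KRT16 by 3.10, KRT6B to KRT16 by 2.28 and KRT6B to KRT17 by 6.96 on the log2 scale. The ratios with KRT14, KRT16 or KRT6B rested on few G12V reads. KRT14 had 2 and 3 counts there and KRT6B 2 and 4. The size of these ratios thus depends in part on the amount added to each count. With 1 added, KRT5 to KRT14 was higher by 9.449 instead of 9.677. KRT6A to KRT16 was then higher by 2.865, KRT6B to KRT16 by 2.24 and KRT6B to KRT17 by 7.107. Without G12V replicate 1 the ratios to KRT16 were higher by 1.38 (KRT6A) and 1.12 (KRT6B), without G12V replicate 2 by 4.82 and 3.44. KRT5 to KRT15 was higher by 2.02 without MCF10A replicate 2 and by 3.46 without MCF10A replicate 1. All 6 ratios were higher in both G12V libraries than in both MCF10A libraries, and each exact two-sided permutation test gave p = 0.33, the smallest possible.

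The other keratins of the first table did not follow the 7 as a group. Of 49 symbols 22 had no read in any of the 4 libraries and 13 were tested. Of these 2 were called lower and 1 higher, with a median log2 fold change of -0.42, beside 5.95% and 5.01% of all genes tested. The number called lower was 1 without MCF10A replicate 2, and 4 with a replicate block, which added KRT7 and KRT18. KRT80, a type II keratin of the same cluster, had 26.1 and 16.2 CPM in MCF10A and rose to 337 ± 31.2 CPM (SD, n = 2) in G12V cells, 4.00 higher on the log2 scale (SE 0.30, adjusted p = 0.00171). KRT13, a type I keratin of stratified mucosa, had 78 and 38 counts in MCF10A and none in either G12V library, at least 19.5-fold lower against 3 counts per library. KRT222 had 1.5 ± 0.25 CPM in MCF10A and 0.13 ± 0.13 CPM in G12V cells (SD, n = 2 each) and was called lower (adjusted p = 0.0269).

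The abundant simple and hair keratins, and the suprabasal keratin KRT10, differed by less than 1 log2 unit and were not called. KRT7 had 3294 CPM on average in MCF10A and 2095 CPM in G12V cells (log2 fold change -0.65, SE 0.30, adjusted p = 0.249), and KRT81 had 3698 and 2293 CPM (-0.69, SE 0.38, adjusted p = 0.335). KRT18 had a log2 change of -0.71 (SE 0.19, adjusted p = 0.0684), KRT8, its partner in simple epithelia, 0.18 (SE 0.21, adjusted p = 0.661), KRT10 -0.23 (SE 0.19, adjusted p = 0.540) and KRT86 -0.63 (SE 0.32, adjusted p = 0.298).

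**Figure D3:**
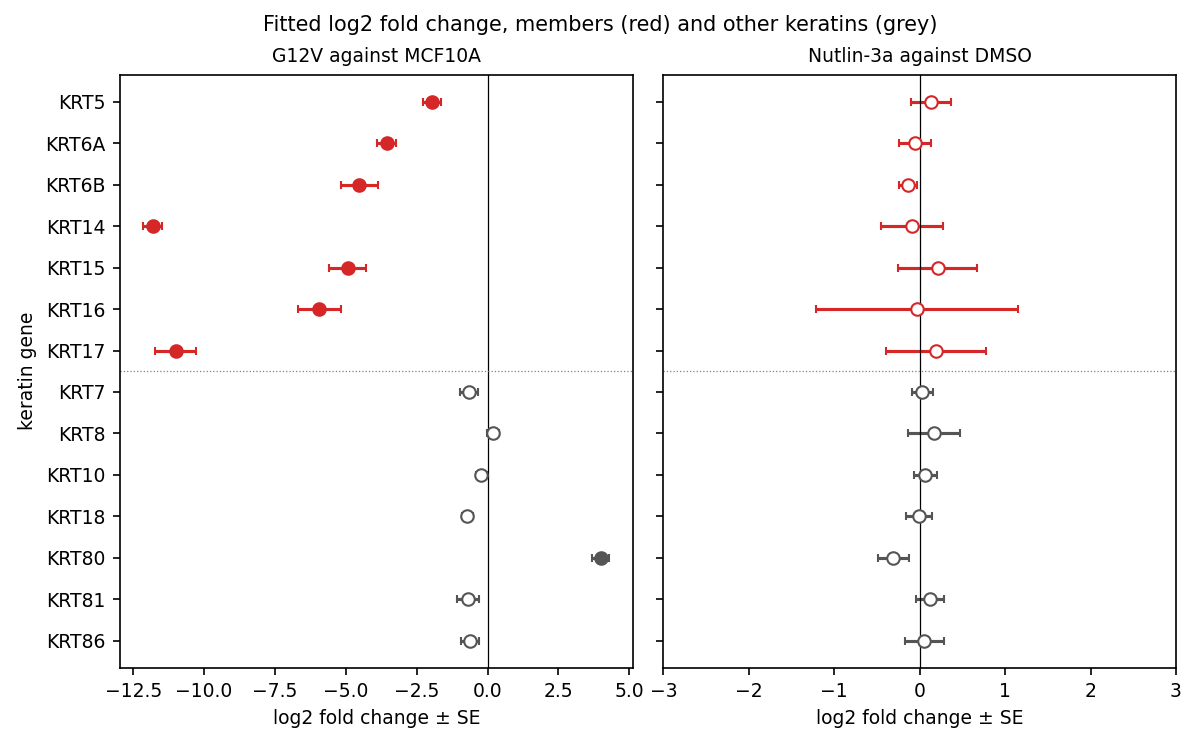
Log2 fold change with its standard error in G12V against MCF10A (left) and Nutlin-3a against DMSO (right, on a narrower axis). Red marks the 7 keratins and grey the other keratins with at least 1000 counts summed over the first table. Filled points are called and open points are not. On the left the 7 keratins run from -1.96 to -11.81 and KRT80 lies at 4.00. On the right no point is filled.

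Along the genome, the members were set beside the other keratins of their clusters and the genes next to these. The clusters were taken from the first to the last keratin gene of the first table (hg19), chr12:52562780-53346685 and chr17:38811872-39796451. Of the 11 keratins tested on chromosome 12, 3 were called lower, all of them members, and 1 higher, KRT80. Of the 10 nearest tested genes to each side of that cluster, 3 were called higher (SCN8A, ACVRL1 and GALNT6) and none lower. On chromosome 17, 6 of 9 tested keratins were called lower, among them the 4 members. The 10 genes to each side of that cluster included 2 called lower each, RAPGEFL1 and TNS4 on one side and HAP1 and JUP on the other, with medians of -0.12 and 0.21. TMEM99, the only other tested gene inside, had a log2 change of 0.11 (SE 0.35). These counts stand beside 5.95% of all genes tested called lower and 5.01% called higher.

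**Figure D4:**
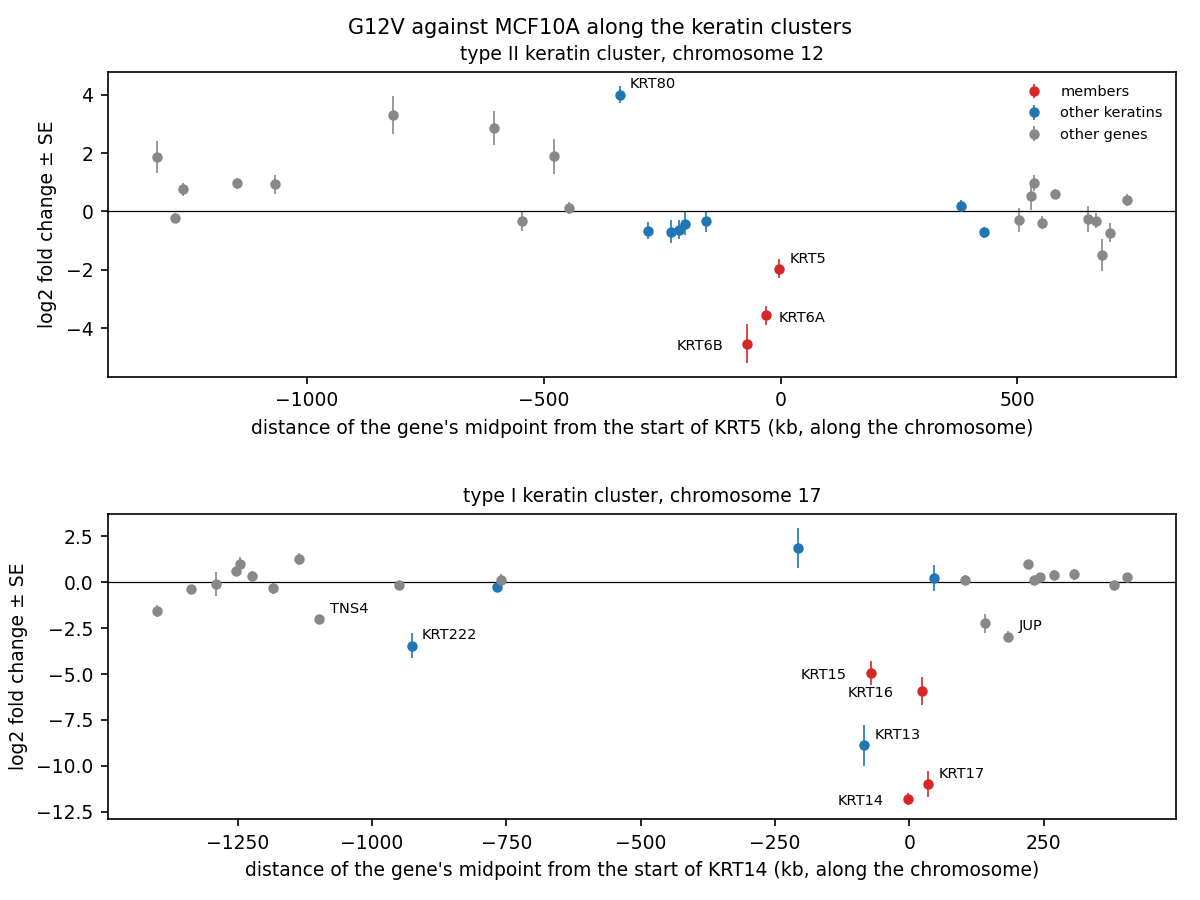
Log2 fold change of G12V against MCF10A with its standard error, against the distance of the midpoint of each tested gene from the start of KRT5 (upper panel) or KRT14 (lower panel) in kb along the chromosome. Members are red, other keratins blue and the other genes grey, and the value of KRT13, with no G12V read, depends on the prior count of the fit. The members form a low group near 0 kb, while most grey points lie around 0.

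Of 12 listed genes for proteins that anchor keratin filaments to the cell membrane 11 were tested, and 8 were called lower and none higher, with a median log2 fold change of -2.11, beside 5.95% of all genes tested called lower. COL17A1, the collagen of the hemidesmosome, had 770 ± 217 CPM in MCF10A and 2.15 ± 0.95 CPM in G12V cells (SD, n = 2 each), a log2 change of -8.48 (SE 0.48, adjusted p = 0.000788). The log2 change was -2.97 (SE 0.30) for JUP, plakoglobin of the desmosome, -2.84 (SE 0.44) for PPL, periplakin, and -2.50 (SE 0.30) for DSP, desmoplakin, which ties keratin to the desmosome. The other 3 were not called. ITGB4, an integrin subunit of the hemidesmosome, had a log2 change of -2.34 (SE 0.57, adjusted p = 0.0534), PLEC, plectin, -0.42 (SE 0.27, adjusted p = 0.421) and EVPL, envoplakin, 0.13 (SE 0.19, adjusted p = 0.757).

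Of the transcription factors reported to act on basal or stress keratin genes, 16 of 18 were tested. Of these 7 were called lower and 2 higher, with a median log2 fold change of -0.77. Among all genes tested, 5.95% were called lower and 5.01% higher. TP63, the p53 family factor of basal epithelial cells, had 166 ± 66.7 CPM in MCF10A and 0.15 ± 0.088 CPM in G12V cells (SD, n = 2 each), a log2 change of -10.04 (SE 0.53, adjusted p = 0.000788). The epithelial factors ELF3 (-5.77, SE 0.96), GRHL3 (-5.63, SE 0.34) and EHF (-1.89, SE 0.41) were lower as well. FOSL1, an AP-1 subunit, was higher by 1.18 (SE 0.27, adjusted p = 0.0448), and GLI2, a Hedgehog pathway factor, had 0.023 CPM in MCF10A, compared with 1.47 ± 0.75 CPM (SD, n = 2) in G12V cells. The number of factors called higher was 1 and not 2 with library totals alone, without a filter and with a filter of more than 1 CPM. With a replicate block it was 3, which added CEBPB. The calls of higher factors thus depended on the settings.

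Of the 7 members, only KRT5 was matched in the RefSeq promoter table (GRCh38.p14). Its 150 bases before the start, chr12:52520395-52520544 on the minus strand, are printed for that reason, and the capitals mark a match to the p53 family decamer at -97 to -88.
KRT5: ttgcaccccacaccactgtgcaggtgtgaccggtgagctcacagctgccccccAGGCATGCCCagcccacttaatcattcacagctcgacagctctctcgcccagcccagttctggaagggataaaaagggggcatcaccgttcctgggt

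Over the 250 bases before the start of all 35116 promoters, on both strands, 5.57% held this decamer. The TATA box TATAAA, held by 10.7% of promoters, the AP-1 site TGANTCA, held by 6.57%, and the AP-2 site GCCNNNGGC, held by 19.8%, had no match in these bases of KRT5. A match is a run of letters and not a shown binding site.

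Markers of other cell states were read beside the keratins, against 5.95% of all genes tested called lower and 5.01% called higher. Epithelial markers had a summed level of 1287 to 1648 CPM in MCF10A and 214 to 250 CPM in G12V cells, and 8 of the 9 tested were called lower, with CDH1, E-cadherin, at 219 ± 27.3 and 0.48 ± 0.076 CPM (SD, n = 2 each). GRHL2 was at 0 in all 4 libraries. Mesenchymal markers had 947 to 1155 CPM in MCF10A and 1628 to 2126 CPM in G12V cells. The largest part of these sums was VIM, with 872 ± 140 and 1427 ± 280 CPM (SD, n = 2 each). It was not called (log2 fold change 0.71, adjusted p = 0.178). Of the 10 tested, 5 were called higher and none lower, with COL1A1 at -1.14 on the log2 scale (adjusted p = 0.166) and COL3A1 at 0 throughout. Luminal markers had 3652 to 4635 and 2520 to 2602 CPM, with MUC1 and GATA3 called lower of 6 tested, FOXA1 at 0.51 on the log2 scale (adjusted p = 0.559) and PGR at 0, and suprabasal markers 95.5 to 111 and 37.0 to 41.3 CPM, with 3 of 6 called lower and KRT1 and LOR at 0. The part of these states in the keratin result was not tested.

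Among the 9535 genes with at least 10 CPM on average, the 5 whose centred log2 profile over the 4 libraries was nearest to the mean profile of the 7 keratins were ST14, IGFBP7, PAK6, PRSS8 and MPZL2, with root mean square differences of 0.030 to 0.19 log2 units. ST14, the membrane protease matriptase, had 246 ± 12.3 CPM in MCF10A and 5.50 ± 0.41 CPM in G12V cells (SD, n = 2 each). PRSS8, prostasin, another membrane serine protease, had 31.8 ± 3.31 and 0.44 ± 0.26 CPM (SD, n = 2 each). The profile is set almost wholly by the difference between the 2 cell types, which gives it few degrees of freedom.

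The second comparison asks whether 4 h of Nutlin-3a change these keratins in MCF10A cells. Of the 13529 genes tested, 0.155% were called higher and 0.0148% lower with Nutlin-3a, and none of the 7 keratins was called in either direction by edgeR's quasi-likelihood test. None had an unadjusted p under 0.05, and edgeR's exact test and DESeq2 called none. The median log2 fold change of the 7 was -0.029, against 0.0066 over all genes tested.

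KRT5 had 4165, 2878 and 4708 CPM with DMSO and 4715, 3097 and 5086 CPM with Nutlin-3a in replicates 1 to 3. The second library was the lowest in both treatments, and the groups overlapped. On the log2 scale the change was 0.13 (SE 0.23).

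KRT6A had 1543, 1351 and 1923 CPM with DMSO and 1490, 1262 and 1881 CPM with Nutlin-3a (log2 fold change -0.056, SE 0.18). KRT6B had 35.0, 32.5 and 32.1 CPM with DMSO and 31.4, 29.3 and 29.6 CPM with Nutlin-3a. KRT6B was the only member whose groups did not overlap, being lower in all 3 Nutlin-3a libraries, as were 4.38% of the genes tested, and its log2 change came to -0.14 (SE 0.10, adjusted p = 1.00).

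KRT14 had 123, 47.4 and 99.8 CPM with DMSO and 112, 53.1 and 89.0 CPM with Nutlin-3a. KRT15 had 9.33, 7.11 and 18.5 CPM and 9.59, 7.99 and 23.0 CPM. In both genes each Nutlin-3a library stood near the DMSO library of the same number. KRT17 had 154, 124 and 443 CPM with DMSO and 153, 162 and 509 CPM with Nutlin-3a, with the third library highest in both treatments.

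KRT16 had 87.8, 6.13 and 8.86 CPM with DMSO and 86.5, 5.94 and 8.41 CPM with Nutlin-3a. The first library of each treatment was 14.3-fold and 14.5-fold above the lowest, while within a number the treatments differed by at most 1.05-fold. Within numbers, the largest difference of any member was 1.30-fold, that of KRT17 in replicate 2. KRT5 was higher with Nutlin-3a in 3 of 3 numbers, by 0.18, 0.11 and 0.11 on the log2 scale, and KRT15 in 3 of 3, while KRT6A, KRT6B and KRT16 were lower in 3 of 3. The share of all genes tested that kept their direction in 3 of 3 was not counted, so no effect is read from these directions.

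**Figure D5:**
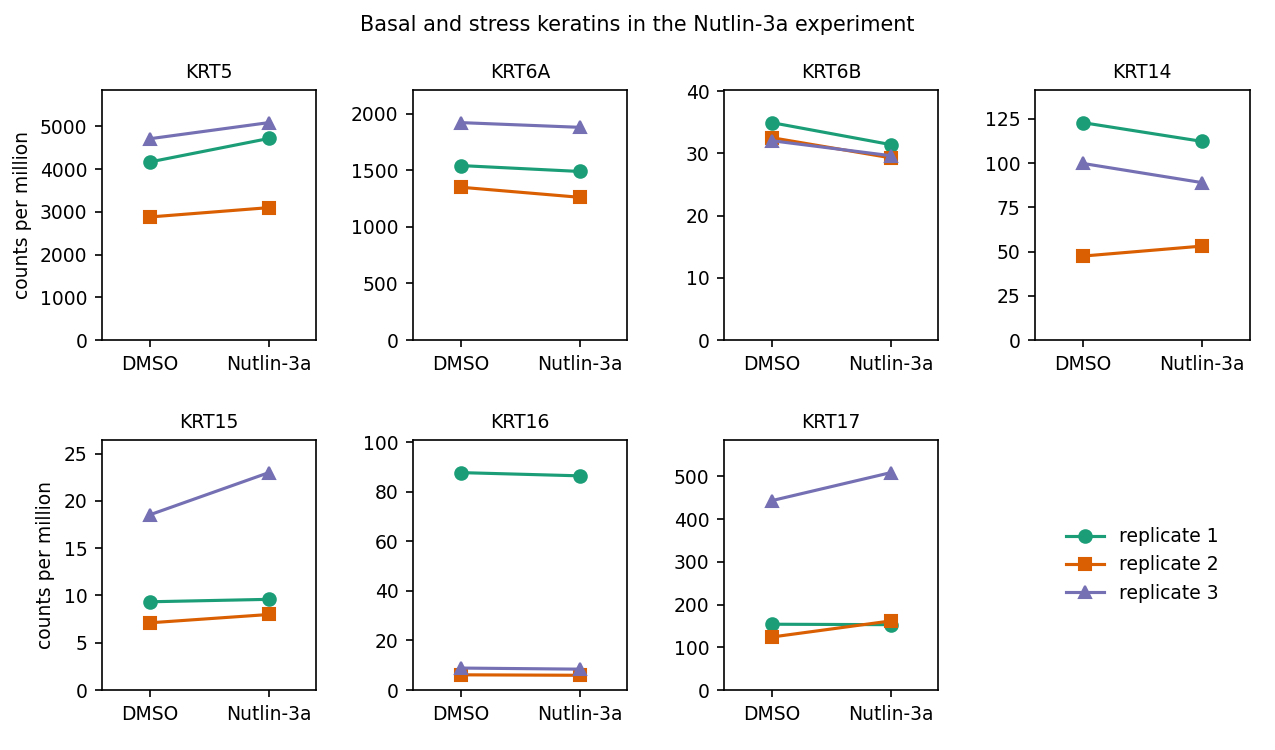
CPM of each keratin with DMSO and with Nutlin-3a, with a line joining the libraries of the same replicate number. The lines are nearly flat and lie apart by number, most of all for KRT16, where replicate 1 is near 87 CPM in both treatments and the others are under 10.

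With a block for the replicate number, the keratins' log2 fold changes ranged from -0.14 (KRT6B) to 0.19 (KRT17), with standard errors of 0.068 to 0.12 and adjusted p of 0.399 to 0.922, and none was called. KRT17 then had an unadjusted p of 0.0428. The whole table had 165 genes called with the block against 23 without it.

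The difference between the replicate numbers themselves was tested after the values had been seen, in a fit with treatment and number as terms. It was called for 6 of the 7 keratins, all but KRT6B (adjusted p = 0.653), and for 16.7% of the genes tested. KRT16 was lower in replicates 2 and 3 than in replicate 1 by 3.85 and 3.33 on the log2 scale (adjusted p = 5.92e-09). KRT17 was 1.63 and KRT15 1.12 higher in replicate 3 than in replicate 1 (adjusted p = 4.52e-07 and 5.74e-05), and KRT14 was 1.23 lower in replicate 2 (adjusted p = 4.33e-05). KRT5 and KRT6A spanned 0.71 and 0.54 (adjusted p = 0.000277 and 0.00206). The stress keratins KRT16 and KRT17 thus did not peak in the same libraries.

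KRT6C had 381 counts in DMSO replicate 1 and 298 in Nutlin-3a replicate 1, against 2 to 7 in the other 4 libraries, the same libraries in which KRT16 was high. Of the 50-base windows of KRT6C, 53.1% also occurred in another gene, mostly in KRT6B and KRT6A. KRT6A was highest in replicate 3 in both treatments. KRT6B was highest in replicate 1 in both, at 1.09-fold the lowest library with DMSO and 1.07-fold with Nutlin-3a. Whether reads shared with these genes add to the KRT6C counts was not tested. KRT17P3, a pseudogene of KRT17, had 25 to 43 counts in replicates 1 and 2 and 103 and 87 in replicate 3, where KRT17 was highest. In the second table the row of KRT17 overlaps that of JUP on the same strand, and the row of KRT16 carries the bounds of a minor transcript, so the counted part of that gene may differ from the first table.

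None of the other keratins, filament anchors or transcription factors was called with Nutlin-3a, and without a block none had an unadjusted p under 0.05, with 12, 11 and 14 of them tested. Their median log2 fold changes were 0.042, 0.056 and -0.11. With a block for the replicate number none was called either, but 6 of the 14 transcription factors and 1 of the 12 other keratins had an unadjusted p under 0.05, as had 1584 of all 13529 genes tested. TP63 was lower with Nutlin-3a in 3 of 3 numbers, with a log2 change of -0.47 with the block (SE 0.12, adjusted p = 0.0731), and GRHL3 had a log2 change of 0.99 (SE 0.23, adjusted p = 0.0510). KRT80 had -0.32 (SE 0.10, unadjusted p = 0.00855, adjusted p = 0.184). TP63 had 22.3 ± 4.55 CPM with DMSO and 16.2 ± 4.86 CPM with Nutlin-3a (SD, n = 3 each; log2 fold change -0.46, SE 0.24). The summed share of the 7 keratins was 0.601% ± 0.144 with DMSO and 0.622% ± 0.159 with Nutlin-3a (SD, n = 3 each; exact two-sided permutation p = 0.7). The 6 partner ratios moved by -0.33 to 0.18 on the log2 scale, with exact permutation p of 0.5 to 0.9, where 3 against 3 libraries allow 0.1 at the least. Taken within replicate numbers, the summed share was higher with Nutlin-3a in 3 of 3, from 0.637% to 0.670%, 0.442% to 0.445% and 0.724% to 0.751%. The ratio of KRT6A to KRT17 was lower in 3 of 3, with differences of -0.040, -0.48 and -0.23 on the log2 scale, as were KRT6B to KRT16 and KRT6B to KRT17. For each of these 4 measures the exact two-sided sign-flip test over the 3 numbers gave p = 0.25, the smallest it allows.

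The untreated MCF10A and the DMSO libraries are the same line, but their tables were counted and normalized separately and no test sets them against each other. Side by side, the order of levels per kb of transcript was KRT5, KRT17, KRT6A, KRT14, KRT15, KRT16, KRT6B in MCF10A and KRT5, KRT6A, KRT17, KRT14, KRT16, KRT6B, KRT15 with DMSO. With DMSO the libraries of KRT16 overlapped with those of KRT14 and KRT6B, and its place depended on replicate 1. KRT16 had 3.70 to 52.9 CPM per kb, and without replicate 1 it came last, at 4.52 against 7.49 for KRT15 and 13.9 to 14.1 for KRT6B. Its length here was that of the main transcript, while its row in the second table has the bounds of a minor one. KRT17 had 1361 ± 216 CPM per kb in the first (SD, n = 2) and 159 ± 116 in the second (SD, n = 3), and KRT6B 1.36 ± 0.70 and 14.4 ± 0.68. The row of KRT17 overlaps that of JUP in the second table and no row in the first. Its counts, and its place beside KRT6A, may thus differ by annotation, which was not tested. KRT5 had 1873 ± 304 and 1750 ± 420 CPM per kb.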

How the data were processed

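Poly(A) RNA was sequenced in 10 MCF10A-derived libraries. The authors aligned reads with TopHat to hg19, obtained gene counts from HTSeq and deposited these raw counts in 2 tables, 1 per experiment. The annotations, the strand setting and the handling of reads with several places are not given in the sources used here. Samples were grouped by title.

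The 7 keratins were found by symbol. Members and lists were chosen with earlier results of these data known. The transcription factor, anchor, keratin and marker lists were described by counts and medians. Each list names up to 4 called genes per direction with the largest change. Other keratins with at least 1000 counts summed over the first table are named as well. Each table was fitted with edgeR 4.0.16 in R 4.3.3 (filterByExpr, TMM, quasi-likelihood F-test). The code of the fits was run on simulated counts with the same dispersion for every gene and no effect of the replicate number. That run checks the code and says nothing of the spread between these libraries. Shares and ratios (0.5 added to each count) were compared by exact permutation. Sequences came from GRCh37 with GENCODE coding models, aligned with MAFFT 7.526. Promoters came from RefSeq. Alternatives were edgeR's exact test, DESeq2 1.42.0, RLE factors, library totals, other filters, a prior count of 2, a replicate block and the omission of each library.

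In the Nutlin-3a experiment the 3 pairs of same-numbered libraries deviated together from their group means (correlations of 0.641, 0.649 and 0.676, against -0.499 to -0.206 for differing numbers), so the numbers shared by the labels pair these libraries. The test between numbers, the tests within numbers of shares and ratios, and the values without the libraries numbered 1 were added after seeing the data.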

Additional observations from a re-analysis of the deposited data

How the results depend on the processing

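The 7 keratins were called lower in G12V cells under every alternative that kept all 4 libraries, and 0 to 7 of them were called when a library was left out, with 0 only without MCF10A replicate 1. Their log2 fold changes stayed below 0 in every setting. When a library was left out they ranged from -8.63 to -5.03 for KRT16, -5.54 to -3.79 for KRT15, -5.11 to -3.84 for KRT6B, -12.31 to -10.35 for KRT17 and -3.89 to -3.09 for KRT6A, and the ratio of KRT6B to KRT17 was higher by 5.54 to 8.37. The genes called in all in G12V cells numbered 1575, and 2536 by edgeR's exact test, 4158 with the replicate block, and 0 to 2129 when a library was left out. Same-numbered untreated libraries deviated together at 0.535. With 2 pairs the value for differing numbers, -0.535, is its mirror by construction and adds no separate check. Whether the shared number pairs these libraries is therefore not settled. With Nutlin-3a none of the 7 keratins was called in any setting. The genes called in all numbered 23, and 84 by edgeR's exact test, 91 by DESeq2, 99 without a filter, 165 with the replicate block, 7 to 11 when a library was left out and 4 without both libraries numbered 1. The block changed no call of a keratin. The difference in summed share with Nutlin-3a, 0.0206 percentage points, ranged from -0.0588 to 0.109 when a library was left out. Likewise the log2 fold change of KRT5 ranged from -0.046 to 0.32, of KRT6A from -0.22 to 0.095, of KRT14 from -0.39 to 0.20, of KRT15 from -0.41 to 0.72, of KRT16 from -2.26 to 2.16 and of KRT17 from -0.61 to 0.98. The log2 ratio changed by -0.043 to 0.38 for KRT5 to KRT14, -0.29 to 0.29 for KRT5 to KRT15, -1.22 to 1.20 for KRT6A to KRT16, -0.67 to 0.16 for KRT6A to KRT17, -1.25 to 1.08 for KRT6B to KRT16 and -0.92 to 0.25 for KRT6B to KRT17. The cause of these changes was not tested. In G12V cells KRT6B, KRT14 and KRT16 rest on 1 to 13 counts per library, so the size of their fall is set by few reads.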

Other observations

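The first libraries of both treatments of the Nutlin-3a experiment, in which KRT16 and KRT6C were high, also held more of several other genes. These were chosen after their values were seen, as the 8 called between numbers with the largest excess of replicate 1 over both other numbers. S100A7, psoriasin, had 20.6, 0.18 and 0.58 CPM with DMSO in replicates 1 to 3 and 20.8, 0.87 and 0.92 CPM with Nutlin-3a. SPRR1A, a cornified envelope precursor, had 15.7, 0.25 and 0.64 CPM and 15.9, 0.062 and 0.53 CPM. SBSN, suprabasin, had 26.4, 2.39 and 1.86 CPM and 24.7, 2.48 and 2.83 CPM. PAPPA2, TNFRSF9, IL1RN and SLC6A9 were the others beside KRT16, which ranked 5. KRT1, a suprabasal keratin, had 29 and 17 counts in the libraries numbered 1 and none in the other 4. The summed level of the suprabasal markers was 116 and 102 CPM in the libraries numbered 1 and 57.3 to 75.7 CPM in the others. What differed between the numbers is not given in the sources used here.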
